A study of Mus musculus with 24 samples.

Results

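The 9 genes described here, Star, Cyp11a1, Cyp17a1, Cyp11b1, Hsd3b1, Hsd3b6, Hsd17b3, Insl3 and Nr5a1, carry or control the synthesis of steroid hormones, or mark a cell type that makes them. They were chosen by symbol from a table of 54232 genes measured in mouse adipose tissue. All 9 are in the table, and all 9 passed the minimum for testing, a sum of more than 10 counts in the series, as 26116 genes did. Hsd17b3 passed it only through PNx, the group in which it was highest, with 4 counts elsewhere.

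Messenger RNA of adipose tissue was sequenced from 24 male C57BL6 mice, 1 library per mouse, with 6 mice in each of 4 groups. The age was 10 weeks by the series description. Mice had either a partial nephrectomy (PNx), in which 1 kidney is removed and part of the other is tied off as a model of renal failure, or a sham operation. All mice, controls included, received an intraperitoneal lentivirus whose adiponectin promoter, active in adipocytes, drove green fluorescent protein (GFP) alone or GFP together with NaKtide, a peptide of the Na,K-ATPase meant to block its signalling through the kinase Src. The groups were Control (sham, GFP), NaKtide (sham, NaKtide), PNx (nephrectomy, GFP) and PNx+NaKtide (nephrectomy, NaKtide). The comparisons ask how these genes stand after nephrectomy, and whether adipocyte NaKtide alters that.

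Steroid hormones are made from cholesterol. The protein of Star moves cholesterol into the mitochondrion, Cyp11a1 cuts its side chain to give pregnenolone, and the enzymes of the Hsd3b family and Cyp17a1 carry the product towards progestins and androgens. The last steps differ by organ: Cyp11b1 makes corticosterone in the adrenal cortex, Hsd17b3 makes testosterone in the testis, Insl3 is a peptide hormone of the Leydig cell, and Nr5a1 (SF-1) is the nuclear receptor that switches on many of these genes in both organs. Adipose tissue is known to convert steroids that reach it from the blood, whereas synthesis from cholesterol belongs mainly to adrenal gland and gonad.

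The libraries were shallow, with 679250 to 2979505 counts, so that 3 counts, the most that a count of 0 allows, correspond to 1.01 to 4.42 CPM (counts relative to the library total). This limit covers counting error only. PNx replicates 1, 2 and 3 stood apart from the other 21 libraries, with a summed level of 16 testis germ cell markers of 1256 to 2087 CPM against at most 1051 CPM, of 9 kidney markers (mostly 1 gene, Slc34a1, with 5626 counts) of 458 to 583 CPM against at most 161 CPM, and of 10 Sertoli cell markers of 56.3 to 82.9 CPM against at most 42.3 CPM. The sum of 15 adipocyte markers, which define the labelled tissue, ran from 111 CPM in PNx+NaKtide replicate 5 to 10860 CPM in PNx replicate 6. Whether the counts in these sums came from RNA of the listed genes was not tested.

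Star held 4038 of the counts of these genes and was the only one of the 9 with counts in every library. Its gene (GRCm38 chr8:25806555-25815982, + strand) lies 13 bp from the end of Ash2l on the opposite strand, which had 531 counts, and no exon bases are shared. As the strand counted is not stated, its counts are not certain to come from Star RNA. In Control, Star ranged from 92.3 to 153 CPM, with a median of 131 CPM. In NaKtide the range was 37.6 to 105 CPM around a median of 78.6 CPM, and in PNx it was 50.8 to 113 CPM around a median of 82.2 CPM. Control replicates 1 to 4 (125 to 153 CPM) were above all 6 PNx libraries, while Control replicates 5 and 6 (92.3 and 96.2 CPM) lay inside the PNx range, so the groups overlapped. PNx+NaKtide lay between 80.3 and 115 CPM with a median of 92.5 CPM.

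By group mean the order for Star was Control (126 ± 26.9 CPM, SD, n = 6), PNx+NaKtide (93.6 ± 13.0 CPM), PNx (83.3 ± 20.5 CPM) and NaKtide (75.7 ± 25 CPM), in which neighbours overlapped. Against Control, the log2 fold change of Star was -0.80 (SE 0.33) in PNx and -0.71 (SE 0.33) in NaKtide. Neither passed the threshold of 0.1 (edgeR quasi-likelihood test, Benjamini-Hochberg adjusted p = 0.155 and 1), but the first passed when PNx replicate 4 or 5 was left out (edgeR adjusted p = 0.0526 and 0.0989). With DESeq2 the log2 fold change of Star in PNx against Control was -0.41 (SE 0.31; DESeq2 adjusted p = 0.326). Between PNx+NaKtide and PNx it was 0.33 (SE 0.33; edgeR adjusted p = 0.597). The level of Star did not follow PNx replicates 1, 2 and 3, which were at 80.9, 83.6 and 77.3 CPM. These libraries held 15.9% of its counts, where they held 19.1% of the counts of all genes. For Cyp17a1 they held 28.7%.

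Per length, in FPKM as deposited, Star was also highest. Its mean in Control was 28.8 ± 8.87 FPKM (SD, n = 6), followed by Cyp17a1 at 2.63 ± 0.863 FPKM, Insl3 at 0.982 ± 1.44 FPKM and Hsd3b1 at 0.583 ± 0.776 FPKM. Cyp11a1, Hsd3b6, Hsd17b3, Nr5a1 and Cyp11b1 had means between 0.105 and 0.170 FPKM, within 1 SD of each other. In Control the spread of Insl3, Hsd3b1 and these 5 genes was as large as the mean or larger.

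**Figure D1:**
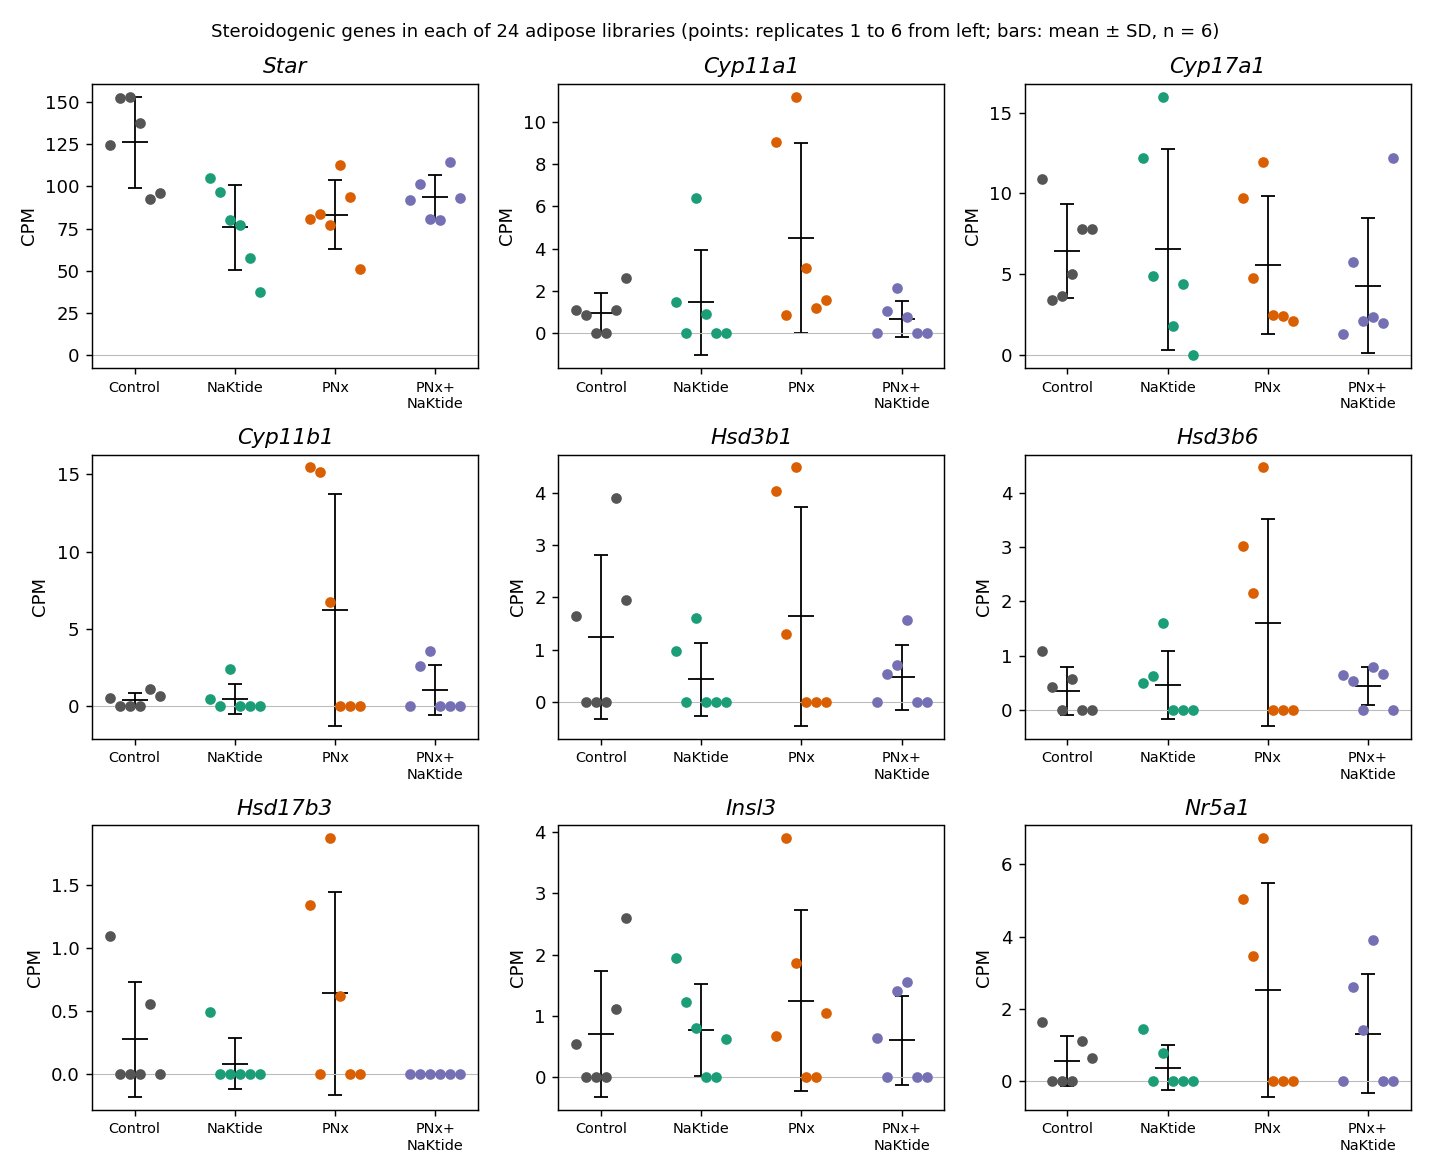
Level of each of the 9 genes in CPM (linear vertical axis, own scale per gene) in the 24 libraries, by group on the horizontal axis. Points are single libraries, from replicate 1 at the left to replicate 6 at the right, and bars are mean ± SD of 6. Star lies between 37.6 and 153 CPM everywhere, while Cyp11b1, Hsd3b6 and Nr5a1 are highest in PNx replicates 1, 2 or 3 and at 0 in PNx replicates 4, 5 and 6.

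Cyp11b1, the corticosterone-making enzyme of the adrenal cortex (chr15:74834125-74841643, - strand), showed the most uneven pattern. PNx replicates 1, 2 and 3 had 46, 35 and 18 counts (15.4, 15.2 and 6.72 CPM), and PNx replicates 4, 5 and 6 had 0. In Control the counts were 1, 0, 0, 0, 2 and 1, and in NaKtide they were 1, 0, 3, 0, 0 and 0. In PNx+NaKtide replicates 2 and 3 had 5 counts each and the other 4 libraries had 0. The same 3 PNx libraries thus held 99 of 117 counts (84.6%), and the other 3 PNx libraries were at 0, as 3 of the Control libraries were.

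The log2 fold change of Cyp11b1 in PNx against Control was 3.54 (SE 1.2) and did not pass the threshold (edgeR adjusted p = 0.134). It passed without PNx replicate 4, 5 or 6, each a library at 0 (edgeR adjusted p = 0.0537, 0.0630 and 0.0751). Its mean was 6.22 ± 7.5 CPM (SD, n = 6) in PNx and 0.385 ± 0.463 CPM in Control. Of the 50-base stretches in its transcripts, 18.1% also occur in other genes, mostly in Cyp11b2, the aldosterone synthase next to it, so reads may be split between them. Cyp11b2 showed a similar distribution, with 110 of 139 counts in PNx replicates 1, 2 and 3. Cyp11b1 also shares 285 exon bases with Gml2 on the opposite strand (38 counts, 27 of them in these libraries). Counts of both genes are uncertain, because the strand setting of the counting was not stated. That limit holds for every gene described.

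Nr5a1 (chr2:38692656-38714542, - strand) had 15, 8 and 18 counts in PNx replicates 1, 2 and 3, and 0 in PNx replicates 4, 5 and 6. Outside PNx it was found in Control replicates 1, 5 and 6 (3, 2 and 1 counts), in NaKtide replicates 1 and 3 (3 and 1), and in PNx+NaKtide replicates 2, 3 and 4 (5, 2 and 5). It was at 0 in the remaining 13 libraries. Nr5a1 was at 2.54 ± 2.96 CPM in PNx and 0.566 ± 0.694 CPM in Control (SD, n = 6), and its log2 fold change was 1.77 (SE 1.05), short of the threshold (edgeR adjusted p = 0.267).

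Hsd3b1 (chr3:98852194-98859794, - strand), which oxidises pregnenolone to progesterone in adrenal and gonad, was detected in the same 11 libraries as Nr5a1, which include the 10 that held Cyp11b1. It had 12, 3 and 12 counts in PNx replicates 1, 2 and 3 and 0 in the other 3 PNx libraries. In Control replicates 1, 5 and 6 it had 3, 7 and 3 counts, in NaKtide replicates 1 and 3 it had 2 each, and in PNx+NaKtide replicates 2, 3 and 4 it had 1, 1 and 2. Control replicate 5 (3.89 CPM) was as high as PNx replicate 1 (4.03 CPM), and the log2 fold change in PNx against Control was 0.07 (SE 0.90; edgeR adjusted p = 0.966). Its sign turned without PNx replicate 3 (-0.38), among other libraries.

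Across the 24 libraries Spearman's rho was 0.91 between Nr5a1 and Hsd3b1, and 0.85 between Cyp11b1 and each of them. Without PNx replicates 1, 2 and 3 the values were 0.89, 0.83 (Cyp11b1 with Hsd3b1) and 0.78 (Cyp11b1 with Nr5a1) over 21 libraries. These are descriptions of sparse counts from the same libraries, which share a depth and many values of 0. With the total count of the library, rho was 0.37 for Nr5a1, 0.29 for Hsd3b1 and 0.39 for Cyp11b1, and 0.06, 0.00 and 0.06 over the 21 libraries. Star stood apart, with rho between -0.34 and 0.22 against the other 8 genes.

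Hsd3b6 (chr3:98805504-98814443, - strand), an Hsd3b form of adrenal zona glomerulosa and Leydig cells, had 9, 5 and 12 counts in PNx replicates 1, 2 and 3 and none in the other 3 PNx libraries. The remaining 18 libraries had at most 2. Its log2 fold change in PNx against Control was 1.70 (SE 0.92; edgeR adjusted p = 0.229), and 15.7% of its 50-base stretches occur in other genes, mainly Hsd3b2. Unlike Hsd3b1, it was also found in libraries without Nr5a1, such as Control replicates 2 and 4.

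Cyp11a1, the side-chain cleavage enzyme (chr9:58006411-58027023, + strand), split the same 3 libraries. PNx replicates 1 and 3 had 27 and 30 counts, whereas PNx replicate 2 had 2, close to PNx replicates 4, 5 and 6 with 5, 2 and 3. In Control the counts were 2, 2, 0, 0, 2 and 4, in NaKtide they were 3, 0, 8, 1, 0 and 0, and in PNx+NaKtide they were 0, 2, 3, 1, 0 and 0. Its log2 fold change against Control was 1.85 in PNx (SE 0.89; edgeR adjusted p = 0.193). Between PNx+NaKtide and PNx it was -2.32 (SE 0.95; edgeR adjusted p = 0.357). PNx replicate 2 had 35 counts of Cyp11b1 beside its 2 of Cyp11a1, while PNx replicate 3 had 18 beside 30. Cyp11a1 shares 145 exon bases with the lincRNA Gm17322 on its own strand, which had 16 counts.

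Cyp17a1, which makes androgen precursors in the testis and is scarcely expressed in the mouse adrenal gland (chr19:46667165-46673172, - strand), was the second best measured gene with 251 counts, and it was at 0 only in NaKtide replicate 6. Its highest libraries were spread over the groups: NaKtide replicate 3 at 16 CPM, NaKtide replicate 1 and PNx+NaKtide replicate 6 at 12.2 CPM each, PNx replicate 3 at 11.9 CPM and Control replicate 1 at 10.9 CPM. In Control it ran from 3.38 to 10.9 CPM (median 6.40) and in PNx from 2.1 to 11.9 CPM (median 3.62). The groups overlapped throughout, and the log2 fold change in PNx against Control was -0.52 (SE 0.62; edgeR adjusted p = 0.590), with the opposite sign under another scaling (0.10 with DESeq2 size factors).

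The genes that point to Leydig cells had few counts. Hsd17b3 (chr13:64058266-64089230, - strand) had 14 counts in all, 9 of them in PNx replicates 1 and 3, and 0 in all 6 PNx+NaKtide libraries. With 10 counts in PNx and 0 in PNx+NaKtide, the summed level in PNx would be 2.30-fold higher if the 0 stood for 3 counts over the group. That figure takes the 10 counts as exact and leaves out the spread between mice, so it is no lower bound for the groups. Insl3 (chr8:71689214-71690575, + strand) had 38 counts over 14 libraries, with the highest values of 9 counts in PNx replicate 2 and 5 in PNx replicate 3, and 4 in Control replicate 6 and in NaKtide replicate 1. Of the exon bases of Insl3, 64.8% are shared with Jak3 on the same strand, and 61.8% of its 50-base stretches are found in Jak3, a kinase gene with 187 counts. Its few counts are therefore uncertain, and the log2 fold change in PNx against Control was 0.59 (SE 0.93; edgeR adjusted p = 0.690) and turned to -0.24 without PNx replicate 2.

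Promoter sequences of 5 of the 9 genes were found in the RefSeq table of GRCm38.p6. Since Nr5a1 is itself among these genes, its binding letters CAAGGNC were searched on both strands of the 250 bases before each start. They occurred in Insl3 only, 57 and 137 bases before the start on the + strand, and 15.0% of 32851 promoters hold them. The full form CAAGGTCA, which contains CAAGGNC, is in 1.33% of promoters and in none of these. The last 120 bases are shown for Insl3 (chr8:71689132-71689251, + strand), with the match in capitals, and for Hsd3b1 (chr3:98859795-98859914, - strand), whose level followed Nr5a1 most closely but whose window holds no match. A match is a description of letters, and the absence of one says only that these letters are not in this window.
Insl3: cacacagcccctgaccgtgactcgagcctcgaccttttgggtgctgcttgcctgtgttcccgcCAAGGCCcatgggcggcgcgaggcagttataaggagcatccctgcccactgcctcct
Hsd3b1: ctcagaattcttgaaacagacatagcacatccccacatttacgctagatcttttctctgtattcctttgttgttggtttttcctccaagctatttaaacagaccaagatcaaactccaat
In Insl3 the letters TATAA also stand 30 bases before the start, as they do on the gene's strand within 50 bases of the start in 4.93% of all promoters.

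Over the 9 genes, none passed the threshold in PNx against Control, where 0.0766% of the genes tested did, 20 genes and all of them lower in PNx. At an unadjusted edgeR p under 0.05 there were 3, Cyp11a1 and Cyp11b1 with higher and Star with lower levels in PNx, beside 25.4% of all genes (18.5% higher and 6.88% lower). The median log2 fold change of the 9 genes fell on Hsd17b3, which could be tested only because of its counts in PNx. The genes next to it in rank were Insl3 at 0.59 and Hsd3b6 at 1.70. This median was 0.85, and that of all genes tested was 0.36. With DESeq2 size factors these medians were 1.38 and 0.76. DESeq2 called 2 of the 9, Cyp11a1 at a log2 fold change of 2.56 (SE 1.01; DESeq2 adjusted p = 0.0516) and Cyp11b1 at 4.52 (SE 1.72; DESeq2 adjusted p = 0.0434), beside 34.9% of the genes to which it gave an adjusted p, and edgeR with DESeq2 size factors called these along with Hsd3b6 and Nr5a1. With these settings, too, the calls among the 9 stand beside calls in a large share of all genes.

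The higher levels in PNx rest largely on PNx replicates 1, 2 and 3. When they were left out, a choice made after seeing the data, the fitted direction in PNx against Control turned for Cyp11b1, Hsd3b1, Hsd3b6, Hsd17b3, Insl3 and Nr5a1 but not for Star, Cyp11a1 and Cyp17a1, and neither these 9 genes nor any other gene passed the threshold (0%, and 10.7% of genes had an unadjusted edgeR p under 0.05). The fitted median of the 9 genes was then -1.50 and that of all genes -0.01. In whole tissue, more cells of a type and more RNA per cell cannot be told apart.

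**Figure D2:**
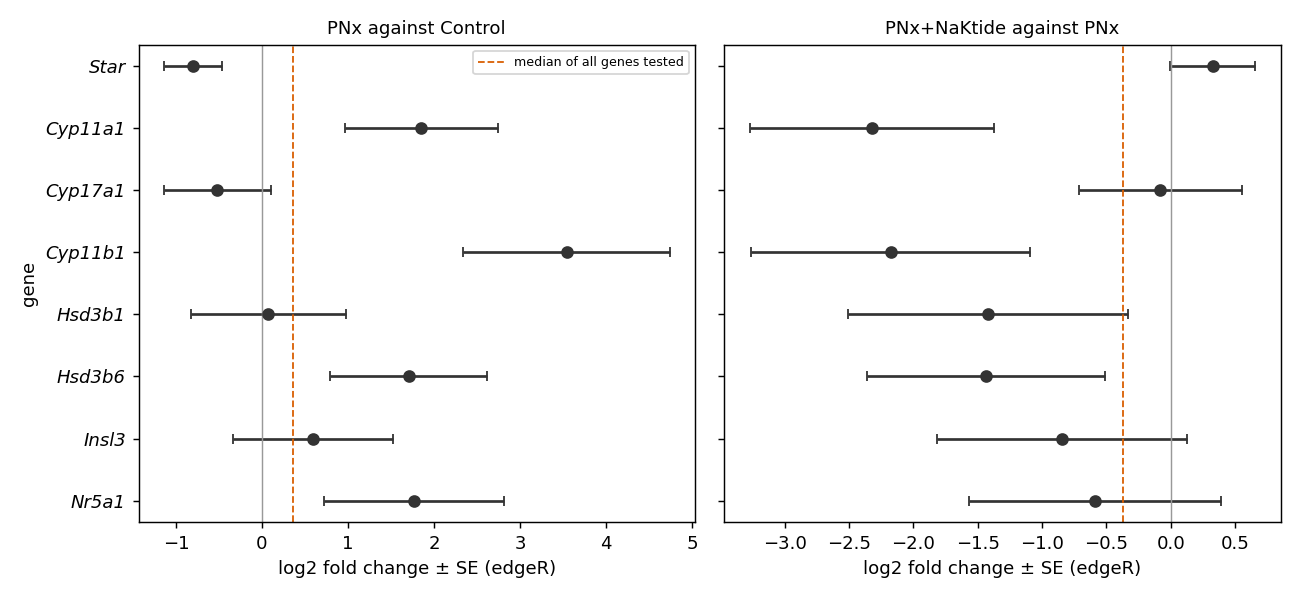
Log2 fold change ± SE from edgeR (horizontal axis) for 8 of the genes (vertical axis) in PNx against Control and in PNx+NaKtide against PNx, with n = 6 libraries per group. The dashed line is the median of all genes tested (0.36 and -0.37), and Hsd17b3 is left out because PNx+NaKtide had 0 counts. Cyp11b1 and Cyp11a1 lie farthest to the right in the first panel and farthest to the left in the second, and no gene passed the threshold in either.

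In PNx+NaKtide against PNx none of the 9 genes passed, and 0% of all genes did. At an unadjusted edgeR p under 0.05 there were 2, Cyp11a1 and Hsd17b3, both with lower levels in PNx+NaKtide, beside 12.7% of all genes (4.07% higher and 8.60% lower). Hsd17b3 could be tested only because of its counts in PNx, so its place here is not a finding, and its unadjusted p with DESeq2 was above 0.05. DESeq2 called none of them, beside 9.63% of genes, and gave an adjusted p to only 3, Star, Cyp17a1 and Cyp11b1. With Hsd17b3 set to the value from 3 counts in PNx+NaKtide, the median log2 fold change of the 9 genes was -1.20, which is that set value itself. As fitted, the median was -1.42, and that of all genes was -0.37. With DESeq2 size factors these medians were -1.99 and -0.71. Without PNx replicates 1, 2 and 3 the fitted median of the 9 genes turned to 0.90, with that of all genes at 0, and the signs of Cyp17a1, Cyp11b1, Hsd3b1, Hsd3b6, Insl3 and Nr5a1 turned, where fitted values against libraries at 0 are no bounds. This contrast shares its PNx libraries with the one above, so opposite signs in the pair are not independent. Nr5a1 was at 1.32 ± 1.65 CPM in PNx+NaKtide, higher than in Control, and its log2 fold change against PNx was -0.59 (SE 0.98).

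In NaKtide against Control none of the 9 and 0% of all genes passed, and at an unadjusted edgeR p under 0.05 there was 1, Star, beside 3.95% of genes. In PNx+NaKtide against NaKtide none of the 9 passed (0% of all genes), and none had an unadjusted p under 0.05, beside 4.09% of genes. For the interaction, the difference of the NaKtide effect between nephrectomy and sham, none passed (0% of all genes). Star had the value 1.04 (SE 0.47; edgeR adjusted p = 0.520) and Cyp11a1 -2.90 (SE 1.37; edgeR adjusted p = 0.528), beside 9.27% of genes with an unadjusted p under 0.05. DESeq2 called none of the 9 in these 3 comparisons, where it called 0.0116%, 0.00776% and 0.580% of the genes to which it gave an adjusted p. For the interaction it gave one to only 3 of the 9, Star, Cyp17a1 and Cyp11b1, so the other 6 could not be called.

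The other markers of steroid-making cells did not follow 1 pattern. Among 7 Leydig cell markers outside the 9 genes, Lhcgr, the receptor for luteinizing hormone that defines these cells, had 4 counts and was at 0 in 21 libraries. The sum of that list ran from 1.85 to 68.1 CPM in PNx, from 2.09 to 9.75 CPM in Control, from 0 to 10.7 CPM in NaKtide and from 0 to 9.36 CPM in PNx+NaKtide, with its highest value in PNx replicate 6, where Hsd11b1 and Sult1e1 were at 42.4 and 22.5 CPM and the adipocyte markers were also highest. Among 7 adrenal cortex markers, Mc2r, the corticotropin receptor, had 4 counts, all in PNx replicate 6. PNx replicates 1, 2 and 3 thus held 3 of the 4 counts of Lhcgr and 0 of Mc2r, and the depth allows up to 3 counts where 0 were seen. These counts are too few to tell whether either cell type was present.

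The sum of the adrenal cortex list ran from 3.34 to 30.0 CPM in Control, from 5.52 to 50.8 CPM in NaKtide, from 10.8 to 122.6 CPM in PNx and from 9.93 to 126 CPM in PNx+NaKtide. It was 92.2 CPM or more in PNx replicates 1, 2 and 3, but its highest value was in PNx+NaKtide replicate 3. Akr1b7, an aldose reductase of the adrenal fasciculata that also belongs to the vas deferens, made up most of it there (115 CPM), although exons of an antisense gene overlap its own and its counts are uncertain. Cyp21a1, the 21-hydroxylase, was highest in PNx replicate 6 at 30.9 CPM and had 28 of 332 counts in PNx replicates 1, 2 and 3, so it did not follow Cyp11b1. The adrenal medulla list was at 20.9 to 27.5 CPM in these 3 libraries and at most 10.1 CPM elsewhere, with Th and Chgb at 77 of 104 and 78 of 127 counts, whereas Pnmt, the enzyme that makes adrenaline, had 2 of 33.

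The rarer genes differed in how closely they followed the marker lists. Over 24 libraries the rho with the germ cell sum was 0.82 for Nr5a1, 0.75 for Hsd3b1, 0.73 for Cyp11b1, 0.69 for Insl3, 0.62 for Cyp11a1, 0.45 for Hsd3b6, 0.31 for Hsd17b3, 0.28 for Cyp17a1 and -0.48 for Star. Without PNx replicates 1, 2 and 3 these values were 0.72, 0.65, 0.58, 0.63, 0.56, 0.16, 0.06, 0.14 and -0.41. With the kidney sum, which is mostly Slc34a1, rho was 0.89 for Nr5a1, 0.82 for Hsd3b1 and 0.81 for Cyp11b1, and 0.84, 0.78 and 0.71 over the 21 libraries. With the adrenal medulla sum it was 0.82, 0.80 and 0.74 in the same order, and 0.73, 0.73 and 0.59 over the 21 libraries. In that order it was 0.72, 0.62 and 0.62 with the adrenal cortex sum, and 0.68, 0.58 and 0.56 over the 21 libraries. The Leydig cell sum gave 0.57, 0.64 and 0.50, and 0.47, 0.55 and 0.40. With 6 ovary granulosa and theca markers rho was 0.80, 0.69 and 0.72, and 0.70, 0.59 and 0.57. Of these 6, Cyp19a1 had the most counts (239), followed by Inha (91). With 15 epididymis markers rho was -0.08, 0.10 and -0.03, and 0.27, 0.46 and 0.40. The part of other tissues in the levels of these genes was not tested.

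**Figure D3:**
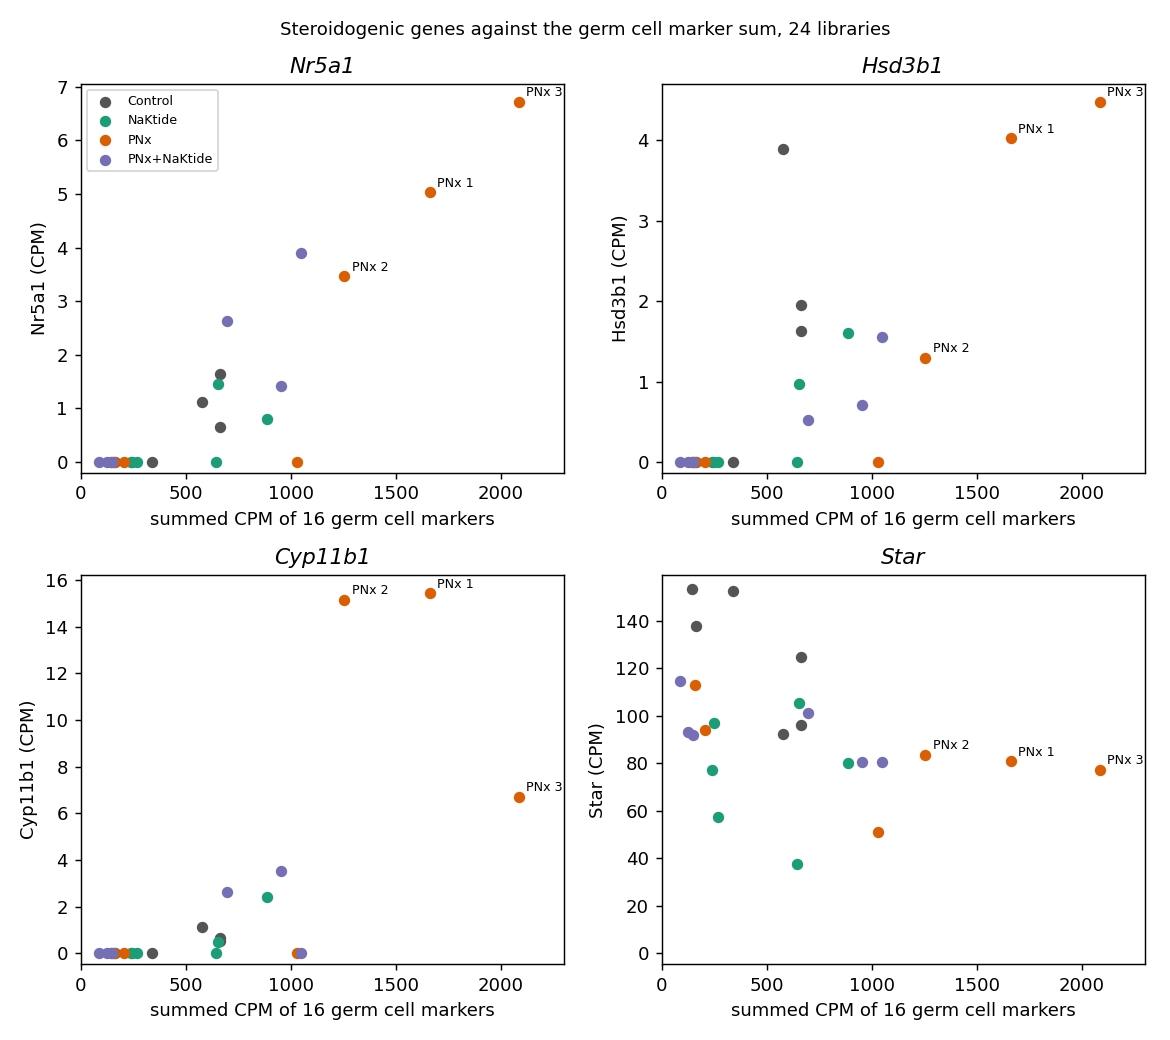
Level of Nr5a1, Hsd3b1, Cyp11b1 and Star (CPM, vertical axes) against the summed CPM of 16 testis germ cell markers (horizontal axis). Each point is 1 of 24 libraries, coloured by group, and PNx replicates 1, 2 and 3 are labelled. In the 3 libraries with the highest germ cell sums (1256 CPM or more), Cyp11b1 is at 6.72 to 15.4 CPM, above all others, Nr5a1 is at 3.46 to 6.72 CPM, with PNx+NaKtide replicate 4 (3.90 CPM) inside that range, and Star is at 77.3 to 83.6 CPM.

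By the same measure, the genes of at least 1 CPM most like Star among 14130 were Tesk2 (rho 0.88), Panx2 (0.86) and Tti2 (0.85). Those most like Cyp17a1 were Cpt1c (0.80), Fchsd1 (0.79) and Cyp2t4 (0.79), and those most like Cyp11b1 were Grm8 (0.95), Rimbp2 (0.94) and Amy2a2 (0.94). The likenesses of Cyp11b1 rest on many shared values of 0.

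The lists of other genes in the pathway are read beside the shares of all genes given above (18.5% higher and 6.88% lower at an unadjusted edgeR p under 0.05, median 0.36). Of 19 genes of cholesterol supply and cofactors, none passed the threshold in PNx against Control. At an unadjusted edgeR p under 0.05, 3 were higher and 1 was lower, with a median log2 fold change of 0.25. The summed level of this list was highest in PNx replicate 6, at 1304 CPM against at most 679 CPM elsewhere. Fdxr, the reductase that feeds electrons to Cyp11a1 through adrenodoxin, was at 4.36 ± 4.33 CPM in PNx and 0.586 ± 0.543 CPM in Control (SD, n = 6), which gave 2.42 on the log2 scale (SE 0.76; edgeR adjusted p = 0.133). Stard3, a cholesterol carrier of the same domain family as Star, was at -1.33 (SE 0.47; edgeR adjusted p = 0.136), the same sign as Star.

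Of 26 other steroid-converting enzymes, 25 were in the table and 19 were tested, with none past the threshold, 4 higher and 0 lower at an unadjusted edgeR p under 0.05 and a median of 0.53. Cyp19a1, the aromatase that makes oestrogens, was at 11.6 ± 12.8 CPM in PNx against 0.888 ± 0.511 CPM in Control (SD, n = 6), with 184 of 239 counts in PNx replicates 1, 2 and 3. Hsd11b1, which regenerates active glucocorticoid in adipose tissue, had instead its highest level in PNx replicate 6. Of 14 tested trophic receptors and transcription factors, 5 were higher and 1 was lower at that unadjusted p (median 1.12). Nr0b1, a partner that represses Nr5a1, had 13 of 21 counts in PNx replicates 1, 2 and 3, and Rxfp2, the receptor for the Insl3 hormone, had 316 of 415. Of 5 tested steroid receptors 1 was higher, with a median of -0.33. None of these 4 lists had a gene past the threshold in any of the other 4 comparisons either, with edgeR. In PNx against Control, DESeq2 called 5 higher and 1 lower of the cholesterol list, 3 higher of the other enzymes, 4 higher of the trophic list and 1 higher of the steroid receptors, beside its 34.9% of all genes, and edgeR with DESeq2 size factors called the same numbers except 5 of the trophic list.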

How the data were processed

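RNA of adipose tissue was sequenced from 24 mice in 4 groups. The sample labels gave each library its group and replicate number. Stranded mRNA libraries had been made, per the labels. By the submitters' processing notes and the methods of the study, the authors trimmed paired reads of 50 bp with Trimmomatic 0.38, aligned them to GRCm38 with HISAT2 2.1.0, and counted reads per gene with GenomicAlignments; DESeq2 1.20.0 is also named. For the counting, the strand setting and the annotation release are not given in the sources used here. Per kb, the 1 mitochondrial gene on the minus strand had more counts than the 12 on the plus strand in all 24 libraries. The ratio ran from 21.02 in PNx replicate 6 to 193.8 in Control replicate 4. Whether reads were counted for the gene on the opposite strand was not tested, so no level is certain to be RNA of the named gene. Raw counts per gene, as deposited, were used for all tests, and the deposited FPKM only for levels compared between genes. The deposited normalized values were not used.

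The 9 genes, the gene lists and the tests were chosen with earlier results of these data known. Symbols and coordinates came from GENCODE M21 (GRCm38), which held 54079 of the 54232 gene identifiers. CPM are counts relative to the library total. Genes with more than 10 counts in all (26116) were tested with edgeR 4.0.16 in R 4.3.3 (TMM scaling, robust quasi-likelihood F-test, 4 group means in 1 fit), and the Benjamini-Hochberg adjusted p over all of them had to be under 0.1. Each standard error was computed from the fold change and its F statistic. p-values measure the spread between libraries, 1 per mouse. The tests were also run on simulated counts drawn independently for each gene and library. Those counts held no shift shared by many genes of a library, so the run does not vouch for data with such shifts. Alternatives were DESeq2 1.42.0, its size factors in edgeR, no filter, the replicate number as a block, and leaving out each library. Spearman correlations and Dixon ratios were computed in Python 3.11.15 with scipy 1.17.1. Promoters came from RefSeq (GRCm38.p6).

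The genes named are the 9, those sharing exon bases with them, members of the gene lists, and, for each of the 9 with at least 100 counts, the 3 named genes of at least 1 CPM with the highest rank correlation. Cyp11a1 (97 counts) fell under this minimum. Ash2l, the nearest gene of the opposite strand to Star, was named after its position was seen. All replicate pairs differed by more than counting noise (chi-square over degrees of freedom of at least 1.57).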

Additional observations from a re-analysis of the deposited data

Results flagged for a closer look

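Among 36 groups of 6 libraries (9 genes in 4 groups), 3 had a library that lay far from the other 5 by Dixon's ratio at the 95% level, and chance gives about 1 in 20. All 3 were in the NaKtide group. Cyp11a1 was at 6.40 CPM (8 counts) in NaKtide replicate 3, where the next library was at 1.46 CPM (ratio 0.772). Cyp11b1 was at 2.40 CPM (3 counts) in the same library, where the next was at 0.487 CPM (ratio 0.797). Hsd17b3 was at 0.487 CPM (1 count) in NaKtide replicate 1 and at 0 in the other 5, which is within what counting error allows.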

How the results depend on the processing

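In PNx against Control the number of genes called by edgeR was 20, and 8696 with DESeq2 size factors, 7764 with DESeq2, 1 with no filter on low counts, 5497 without PNx replicate 6 and NaKtide replicate 6, and 0 without PNx replicates 1, 2 and 3; both removals were chosen after seeing the data. Leaving out 1 library at a time gave 0 to 7213 genes, the most without PNx replicate 4. Of the 9 genes described, 0 were called, and 4 with DESeq2 size factors, 2 with DESeq2, 2 without PNx replicate 6 and NaKtide replicate 6, and 0 to 2 when leaving out single libraries (Star and Cyp11b1 without PNx replicate 4). With DESeq2 the count of genes called, 0 by edgeR, was 1514 in PNx+NaKtide against PNx, 3 in NaKtide against Control, 2 in PNx+NaKtide against NaKtide and 94 for the interaction, where leaving out single libraries gave 0 to 1. None of the 9 genes was called in these 4 comparisons under any setting, although DESeq2 gave 6 of them no adjusted p in PNx+NaKtide against PNx and for the interaction. The 20, 8696 and 7764 calls were split 0 higher and 20 lower, 7971 and 725, and 6861 and 903. The mean CPM of the 9 genes moved by less than 1 SD in all 252 recomputations. Most of these left 1 of 6 libraries out of a group, which cannot move a mean by 1 SD, so they do not show that the levels are stable. The cause of the shifts in the calls was not tested.

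Signs turned as follows. Without PNx replicates 1, 2 and 3 the log2 fold changes in PNx against Control were -2.55 for Cyp11b1, -4.08 for Hsd3b1, -2.48 for Hsd3b6, -0.34 for Hsd17b3, -0.94 for Insl3 and -3.01 for Nr5a1. In PNx+NaKtide against PNx they were 0.90 for Cyp17a1, 3.89 for Cyp11b1, 2.76 for Hsd3b1, 2.74 for Hsd3b6, 0.70 for Insl3 and 4.17 for Nr5a1, and for the interaction 0.88, 3.59, 4.05, 2.38, 0.36 and 4.44 in the same order. Where the remaining PNx libraries are at 0, these fitted values depend on the prior count and are no bounds. Cyp17a1 in PNx against Control was at 0.10 with DESeq2 size factors and 0.10 with DESeq2, Hsd3b1 in PNx+NaKtide against NaKtide at 0.031 and 1.6e-05, and Nr5a1 in NaKtide against Control at 0.015 without PNx replicate 6 and NaKtide replicate 6.

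With single libraries left out, the ranges that cross 0 were -0.38 to 0.92 (Hsd3b1) and -0.24 to 1.52 (Insl3) in PNx against Control, and -0.66 to 0.18 (Cyp17a1) in PNx+NaKtide against PNx. In NaKtide against Control they were -0.69 to 1.10 (Cyp11a1), -0.36 to 0.29 (Cyp17a1), -1.11 to 0.93 (Cyp11b1), -0.27 to 0.88 (Hsd3b6), -0.10 to 1.25 (Insl3) and -1.39 to 0.25 (Nr5a1). In PNx+NaKtide against NaKtide they were -1.73 to 0.22 (Cyp11a1), -0.70 to 0.64 (Hsd3b1), -0.36 to 0.54 (Hsd3b6) and -1.62 to 0 (Hsd17b3), and for the interaction -0.67 to 0.28 (Cyp17a1), -0.94 to 0.56 (Hsd3b1) and -0.88 to 0.80 (Nr5a1).

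With the replicate number as a block, 1 gene was called in PNx against Control, 2 for the interaction, and none of the 9. Signs turned for Hsd3b1 in PNx against Control (-0.13), Cyp17a1 in PNx+NaKtide against PNx (0.062), Cyp11a1, Cyp17a1 and Cyp11b1 in NaKtide against Control (-0.15, -0.16 and -0.34), Hsd3b1 and Hsd3b6 in PNx+NaKtide against NaKtide (0.26 and 0.17), and Cyp17a1, Hsd3b1 and Nr5a1 for the interaction (0.22, 0.40 and 0.32). Whether the numbers pair the samples is not settled by these values. The correlations of same-numbered libraries ran from -0.55 to 0.60, with 16 of 36 over 0.1, and 10 of 24 libraries were closest to their own number. Between PNx and PNx+NaKtide they were 0.60, 0.54, 0.49 and 0.41 for replicates 2, 3, 5 and 6. For replicates 1 and 4 they were -0.55 and -0.47.

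With at most 117 counts over 24 libraries, 7 of the 9 genes could not be compared at a level below a few CPM.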
